A study of Mus musculus with 28 samples.

Results

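The genes described here are 28 enzymes and regulators of cholesterol synthesis, chosen by gene symbol from the pathway. The choice was made with earlier results of these data known. All 28 symbols stood among the 31179 listed for duodenum and the 30227 listed for kidney cortex. RNA was counted in 8-week-old female mice with 6 wild-type (WT, Vdr+/+), 4 Vdr-/- (KO) and 4 Vdr AF2 libraries per tissue, 28 libraries in all. The KO mice lack a working vitamin D receptor and carry the allele that the file headers call demay. The AF2 mice carry a receptor without activation function 2, the surface through which a hormone-bound nuclear receptor recruits coactivators. Every group, WT included, was fed the TD.96348 diet, which is high in calcium, phosphate and lactose. The design sets loss of the receptor beside loss of its activation function.

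Cells build cholesterol from acetyl-CoA. The carbon is condensed to mevalonate, turned into isoprenoid units, joined to squalene, closed into the sterol ring and then trimmed by a chain of reductases, demethylases and isomerases. Transcription of the enzymes is driven by SREBP2 (Srebf2), which Scap escorts out of the endoplasmic reticulum when membrane cholesterol is low and which the Insig proteins hold back when it is high. In the small intestine the pathway runs beside the uptake of dietary and biliary cholesterol.

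Library totals were 3713352 to 6519522 counts in 13 duodenal libraries and 25181916 in duodenal WT 2, and 3725648 to 6492228 counts in kidney. All deposited counts are even, and the number of reads is taken as the counts divided by 2. Normalised counts are given as CPM, the counts relative to a library's TMM-scaled total. Vdr was at 267 to 646 CPM in WT duodenum, 97.3 to 120.2 in KO and 362 to 432 in AF2. In kidney it was at 177 to 212 CPM in WT, 7.94 to 22.1 in KO and 64.8 to 91.9 in AF2. QuantSeq reads come from the 3' end of a transcript, and where the deleted part lies is not given in the sources used here, so these levels do not check the deletion. A gene was called when the Benjamini-Hochberg adjusted p of edgeR's quasi-likelihood test, over all genes tested, was under 0.05. All adjusted p-values below are of this test unless another tool is named. The labels do not say that each library came from a separate mouse, so p-values measure the spread between these libraries. The KO and AF2 comparisons share their WT libraries. In whole tissue, fewer cells of a type and less RNA per cell cannot be told apart.

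Of the 28 genes, 27 passed the filter on low counts in each tissue, among 13302 genes tested in duodenum and 13502 in kidney. The exception was Idi1, the isopentenyl diphosphate isomerase, which had 0 to 7 reads in every duodenal library and 0 to 2 in every kidney library. Reads come from the 3' end and how they were counted is not given, so these numbers do not show that Idi1 is unexpressed.

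The start sites of these genes share short promoter elements. RefSeq windows on GRCm38.p6 (the mm10 build) reach from 250 bases before to 50 bases after a start site, and 24 of the 28 genes matched one. Both strands were searched, and overlapping matches were counted. The CCAAT box (CCAAT, or ATTGG on the other strand), bound by NF-Y, was found for 22 of the 24 (91.7%) and for 41.1% of the 27025 symbols in the table. The GC box (GGGCGG), bound by Sp1, was likewise found for 22 (91.7%), against 38.2% of all symbols. The sterol regulatory element core (TCACNCCAC) was found for 1 of the 24 genes, Hmgcs1 (4.17%), and for 1.44% of all symbols. A match of letters is a description and not evidence of binding.

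The 250 bases or fewer before the gene body are shown 5′ to 3′ for the Hmgcs1, Mvk and Hsd17b7 genes, which stood among the lowest in AF2 duodenum, and for Acly, the gene called in AF2 kidney. Capitals mark the CCAAT box on either strand and, in Hmgcs1, the sterol regulatory element core.
Hmgcs1, chr13:119690101-119690350, plus strand: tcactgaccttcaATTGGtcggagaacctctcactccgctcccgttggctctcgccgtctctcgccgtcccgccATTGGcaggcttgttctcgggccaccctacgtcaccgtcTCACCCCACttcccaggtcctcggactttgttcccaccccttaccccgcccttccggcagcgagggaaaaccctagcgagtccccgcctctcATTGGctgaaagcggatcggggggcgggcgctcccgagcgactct
Mvk, chr5:114444019-114444268, plus strand: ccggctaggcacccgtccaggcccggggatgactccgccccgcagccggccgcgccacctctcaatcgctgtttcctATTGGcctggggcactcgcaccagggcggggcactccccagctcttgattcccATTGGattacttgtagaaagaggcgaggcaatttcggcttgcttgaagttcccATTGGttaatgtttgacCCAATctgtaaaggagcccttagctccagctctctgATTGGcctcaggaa
Hsd17b7, chr1:169969242-169969455, minus strand: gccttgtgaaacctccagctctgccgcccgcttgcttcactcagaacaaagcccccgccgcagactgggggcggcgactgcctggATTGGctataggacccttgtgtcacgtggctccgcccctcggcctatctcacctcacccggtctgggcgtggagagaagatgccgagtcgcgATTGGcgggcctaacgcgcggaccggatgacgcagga
Acly, chr11:100528001-100528250, minus strand: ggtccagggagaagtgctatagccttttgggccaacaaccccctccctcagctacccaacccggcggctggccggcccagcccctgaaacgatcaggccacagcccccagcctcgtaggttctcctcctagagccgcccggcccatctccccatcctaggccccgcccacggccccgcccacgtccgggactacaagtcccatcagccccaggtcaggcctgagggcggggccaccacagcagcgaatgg

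In Hmgcs1 the sterol regulatory element core began 137 bases before the start site, between CCAAT boxes. Mvk held 5 CCAAT boxes in its window and Hsd17b7 held 3. Acly had none before its start site and 4 GC boxes.

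In AF2 duodenum the cholesterol synthesis genes stood below WT, with no single gene called. Of the 27 genes tested, 25 were lower in AF2 than in WT, with a median log2 fold change of -0.33 beside 0.00 over all 13302 genes. Many of the 27 moved together by library, with WT 6 the highest WT library for 17 of them. The number of genes lower, or under a p threshold, is thus not a number of independent observations. The genes were also chosen with earlier results of these data known. With edgeR 0 of the 27 were called, beside 9 of all genes (0.0677%). At an unadjusted p under 0.05 there were 11 of the 27, all of them lower, beside 11.8% of all genes in either direction and 6.81% in the lower direction. DESeq2 called 2 of them, Pmvk and Hsd17b7, and limma-voom 0. The share of all genes that DESeq2 called is not given here, so its count does not single out the pathway. Without a filter on low counts edgeR called 5 of 28, Mvk, Sqle, Hsd17b7, Insig1 and Stard4. In that fit 240 of all genes were called, against 9 with the filter. The unfiltered fit kept every gene with any count. How many it tested is not given here, so no share stands beside the 5. The median was -0.74 for the 4 mevalonate steps, -0.45 for the 4 isoprenoid and squalene steps tested, -0.54 for the 9 sterol ring steps, -0.23 for the 5 genes of SREBP control, -0.22 for the 2 transport and binding genes and -0.06 for the 3 genes of precursor supply.

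The mevalonate enzymes had the lowest median of the groups. Mvk, mevalonate kinase, was at 12.7 to 36.4 CPM in WT (median 23.3) and at 14.8, 12.2, 11.7 and 13.9 in AF2. All 4 AF2 libraries lay below the WT median, and AF2 2 and AF2 3 lay below the lowest WT library. The log2 fold change was -0.82 ± 0.25 (SE, adjusted p = 0.188). Pmvk, phosphomevalonate kinase, was at 20.1 to 28.5 CPM in WT (median 24.2) and at 13.8, 13.2, 15.1 and 18.3 in AF2. Its AF2 libraries all lay below the lowest WT library, and the log2 fold change was -0.68 ± 0.18 (adjusted p = 0.121). Hmgcs1, which condenses acetyl-CoA with acetoacetyl-CoA, was at 203 to 514 CPM in WT (median 309) and at 227, 219, 163 and 157 in AF2. WT 2 and WT 3 were as low as the 2 higher AF2 libraries, and the log2 fold change was -0.79 ± 0.29 (adjusted p = 0.326). Mvd, the decarboxylase that ends this stretch, was at 13.3 to 38.7 CPM in WT and 17.3 to 26.3 in AF2, with a log2 fold change of -0.30 ± 0.28.

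Among the isoprenoid and squalene enzymes, Sqle, the squalene monooxygenase, differed most. It was at 29.9 to 69.0 CPM in WT (median 54.2) and at 36.1, 34.1, 29.9 and 27.7 in AF2. Again WT 2 (29.9) and WT 3 (34.3) sat with the AF2 libraries, and the other WT libraries were at 54.2 or higher. The log2 fold change was -0.67 ± 0.21 (adjusted p = 0.200). Ggps1, which makes geranylgeranyl diphosphate for prenylation, was at 32.1 to 40.6 CPM in WT and 26.3 to 33.3 in AF2 (log2 fold change -0.29 ± 0.14). Fdft1, squalene synthase, had a log2 fold change of -0.61 ± 0.31, and Fdps, farnesyl diphosphate synthase, one of -0.12 ± 0.29.

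All 9 sterol ring enzymes were lower in AF2 duodenum. Hsd17b7, a reductase of the demethylation complex, had the smallest p of the 27 genes. It was at 35.6 to 88.2 CPM in WT (median 56.6) and at 44.5, 34.1, 29.9 and 28.7 in AF2. Only WT 2, at 35.6, came down to the AF2 range, and the log2 fold change was -0.79 ± 0.20 (adjusted p = 0.105). Its partner in the same complex, Nsdhl, was at 18.1 to 31.7 CPM in WT (median 23.1) and at 16.8, 14.2, 18.6 and 16.3 in AF2, with a log2 fold change of -0.54 ± 0.21 (adjusted p = 0.322). Tm7sf2, a sterol reductase, was at 2.63 to 8.18 CPM in WT (median 4.59) and at 3.95, 1.35, 2.16 and 2.48 in AF2, where the 4 libraries held 22 reads in all. Its log2 fold change was -0.96 ± 0.39 (adjusted p = 0.338). Msmo1, the methyl sterol oxidase, was at 115 to 315 CPM in WT (median 159) and at 114, 133, 115 and 101 in AF2, a log2 fold change of -0.65 ± 0.28 (adjusted p = 0.402).

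The remaining ring enzymes all had an unadjusted p above 0.05. Cyp51, lanosterol demethylase, ranged from 113 to 351 CPM in WT duodenum and from 117 to 158 in AF2 (log2 fold change -0.57 ± 0.30). Lss, which closes the ring, had a log2 fold change of -0.35 ± 0.31. Ebp, Sc5d and Dhcr7, the isomerase, desaturase and reductase of the late steps, had log2 fold changes of -0.17 ± 0.13, -0.27 ± 0.14 and -0.20 ± 0.20.

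Of the regulators, Insig1, which retains the SREBP complex and is itself an SREBP target, stood lowest in AF2 duodenum. It was at 11.4 to 42.5 CPM in WT (median 17.5), at 27.1, 14.2, 12.4 and 22.8 in KO and at 13.3, 13.2, 10.8 and 15.4 in AF2. The groups overlapped, and WT 1 and WT 6 were the 2 highest libraries. The log2 fold change of AF2 against WT was -0.78 ± 0.33 (adjusted p = 0.362). Srebf2 itself was at 48.7 to 92.8 CPM in WT (median 61.3), at 72.7, 48.1, 60.2 and 64.8 in KO and at 61.8, 60.2, 59.3 and 43.6 in AF2. Its log2 fold change in AF2 was -0.21 ± 0.16 (adjusted p = 0.654). Srebf1, which encodes the SREBP isoforms that favour fatty acid genes, was at 10.1 to 16.0 CPM in WT (median 13.6), at 13.8, 14.2, 5.97 and 10.0 in KO and at 10.4, 10.5, 9.52 and 15.4 in AF2 (log2 fold change in AF2 -0.23 ± 0.25).

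Scap, the escort protein, overlapped between WT and both mutants. It was at 45.3 to 61.6 CPM in WT (median 56.5), at 56.3, 59.8, 64.4 and 69.8 in KO and at 52.4, 61.2, 55.0 and 52.0 in AF2, with a log2 fold change in AF2 of -0.01 ± 0.12. Insig2 was at 32.1 to 56.1 CPM in WT (median 36.3), at 37.9, 41.6, 41.0 and 50.2 in KO and at 29.7, 42.9, 25.1 and 38.6 in AF2 (log2 fold change in AF2 -0.24 ± 0.17). Stard4, a soluble carrier of cholesterol, was at 131 to 215 CPM in WT (median 152) and at 129, 122, 89.2 and 117 in AF2. Its AF2 libraries all lay below the lowest WT library, and the log2 fold change was -0.53 ± 0.18 (adjusted p = 0.248). Pmvk and Stard4 were the 2 of 27 genes whose AF2 libraries all lay below all WT libraries, beside 1.25% of all genes. Tmem97, a sterol-binding membrane protein, was 1 of the 2 genes higher in AF2 duodenum (log2 fold change 0.09 ± 0.16), and Acly the other (0.13 ± 0.16).

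**Figure D1:**
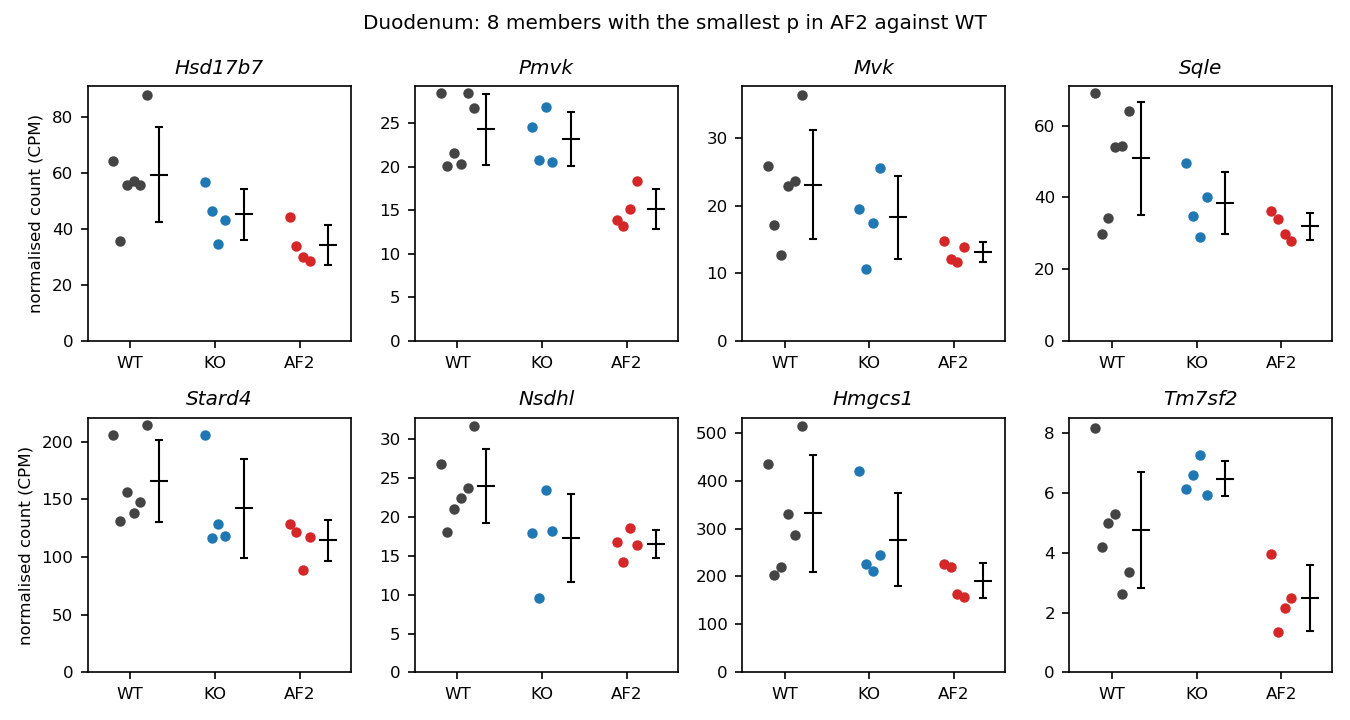
Normalised counts (CPM, linear axes from 0) of 8 genes in every duodenal library, by genotype, with the mean and SD beside the points. WT libraries spread widely, Hmgcs1 from 203 to 514 CPM, and the AF2 libraries sit at the lower end of or below the WT range.

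A library that was high for one of these genes in duodenum was often high for others. For each library, the median over the 27 genes of the log2 ratio to the WT mean was 0.16, -0.29, -0.27, -0.00, -0.10 and 0.45 in WT 1 to WT 6. It was 0.09, -0.36, -0.11 and -0.09 in KO 1 to KO 4 and -0.36, -0.37, -0.48 and -0.51 in AF2 1 to AF2 4. The 4 AF2 libraries were thus below every WT library, and KO 2 lay level with them. WT 6 was the highest WT library for 17 of the 27 genes and WT 1 for 6, and WT 2 was the lowest for 9 and WT 3 for 8. Leaving out WT 6, the highest, the median log2 fold change of AF2 against WT was -0.32 with 22 of 27 genes lower. Leaving out WT 1 it was -0.29 with 24 lower. The 11 genes with an unadjusted p under 0.05 became 7 without WT 1 or AF2 2. Over the 17 enzymes from Hmgcs1 to the end of the ring steps alone, the AF2 libraries were at -0.42, -0.45, -0.65 and -0.57. For these enzymes WT 2 (-0.44) and KO 2 (-0.43) lay below AF2 1, and WT 3 (-0.37) lay near it. The AF2 libraries were thus not below every WT library on this measure.

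Library codes in the sample descriptions fall into runs of consecutive numbers, and what a run stands for is not given. AF2 1 to AF2 4 share theirs with WT 5 and WT 6, whose medians were -0.10 and 0.45 against -0.36 to -0.51 in AF2. KO 1 to KO 4 share theirs with WT 3 and WT 4, at -0.27 and -0.00 against -0.36 to 0.09 in KO. In kidney, too, AF2 libraries share a run with WT 5 and WT 6, and KO libraries with WT 3 and WT 4. AF2 and KO libraries share no run in either tissue, so run and genotype cannot be told apart between them. With the runs as a block, the median log2 fold change in duodenum was -0.46 for AF2 against WT, with 24 of 27 lower. In that fit 2 were called (Mvk and Hsd17b7), without the share of all genes beside them. For KO against WT the median was 0.03 with 9 of 27 lower.

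**Figure D2:**
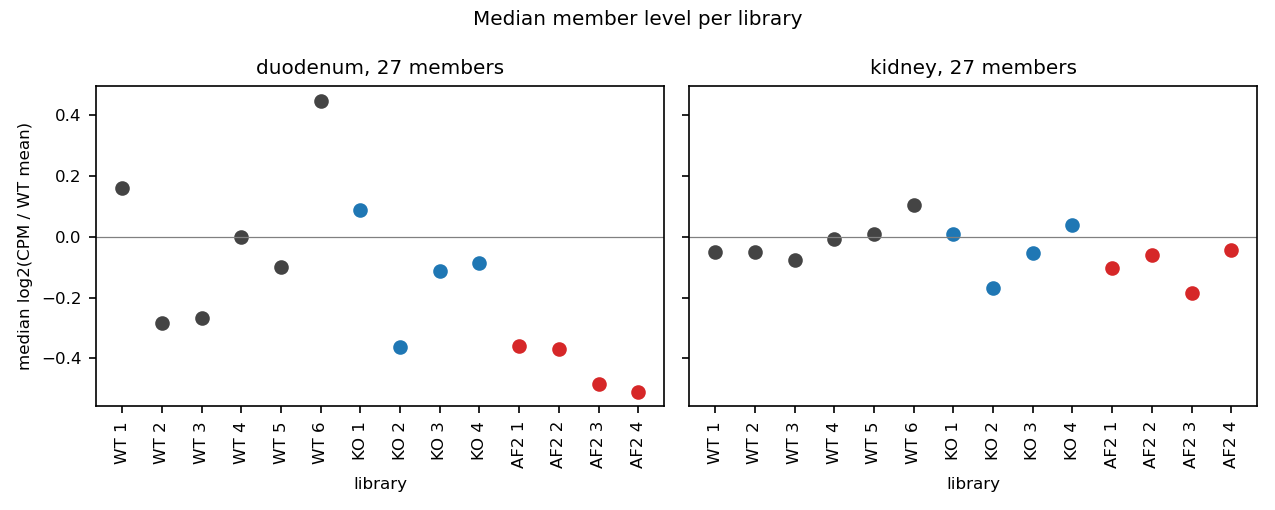
Median over 27 genes of the log2 ratio of each library's CPM to the WT mean (vertical axis), for every library of duodenum (left) and kidney (right), coloured by genotype. Duodenal WT libraries range from -0.29 to 0.45 and the AF2 libraries from -0.51 to -0.36, while kidney libraries lie between -0.19 and 0.10.

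The spread among WT libraries differed from gene to gene. The coefficient of variation over the 6 WT duodenal libraries was 52.3% for Insig1, 44.3% for Cyp51, 42.3% for Msmo1, 40.7% for Tm7sf2 and 37.0% for Hmgcs1. It was 7.96% for Ggps1 and 9.76% for Scap. The median over the 27 genes was 23.3%, beside 23.1% over all genes tested. In WT kidney the median was 16.1%, beside 20.8% over all genes, with 11.8% for Hmgcs1 and 13.0% for Cyp51 but 43.1% for Msmo1.

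Markers of other cell types also differed in the AF2 duodenal libraries. All 10 smooth muscle markers were higher in AF2 than in WT, 9 of them at an unadjusted p under 0.05 and 0 called, and their summed level was 851 to 1118 CPM in AF2 and 567 to 911 in WT. All 10 enterocyte markers were lower, 4 at an unadjusted p under 0.05 and 0 called, with sums of 13049 to 18409 CPM in AF2 and 12896 to 26478 in WT. Their medians were 0.50 and -0.30 on the log2 scale, and none of either list was at 0. All 6 Paneth markers were higher (median 0.58, 2 at an unadjusted p under 0.05), with sums of 2377 to 6687 CPM in AF2 and 2087 to 3868 in WT, and 7 of 10 crypt and cycling markers were higher (2 at that p). All 6 fibroblast markers were higher (4 at that p, sums of 672 to 1034 CPM against 562 to 726), as were all 7 enteroendocrine markers (3 at that p, 414 to 457 CPM against 261 to 386). Of these 4 lists 0 genes were called. The 7 pancreatic acinar markers summed to 55.6 to 13164 CPM in WT, 146.9 to 6920.3 in KO and 267 to 5924 in AF2. The part of these markers in the values above was not tested.

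In KO duodenum the median of the pathway genes lay near 0, and its direction turned with the code runs as a block. With edgeR, DESeq2 and limma-voom 0 of the 27 genes were called, beside 0.0226% of all genes with edgeR. There were 18 lower genes and a median log2 fold change of -0.08, against 9 and 0.03 with that block. At an unadjusted p under 0.05 there were 2 genes, both lower, beside 11.4% of all genes. These were Sc5d and Nsdhl. Sc5d was at 148 to 256 CPM in WT (median 176) and at 163, 138, 149 and 150.2 in KO, with a log2 fold change of -0.31 ± 0.14 (adjusted p = 0.378). The WT and KO ranges overlapped, and with the code runs as a block the value was 0.011. Nsdhl was at 17.9, 9.63, 23.5 and 18.3 CPM in KO, a log2 fold change of -0.46 ± 0.21 (adjusted p = 0.406).

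Sqle and Hsd17b7 came next in KO duodenum. Sqle was at 49.6, 35.0, 29.0 and 40.2 CPM in KO, with a log2 fold change of -0.40 ± 0.21 (adjusted p = 0.459). Hsd17b7 was at 56.8, 46.6, 34.6 and 43.4 CPM (log2 fold change -0.39 ± 0.20, adjusted p = 0.451). KO 1 stood apart from the other KO libraries: Hmgcs1 was at 421 CPM there and at 212 to 246 in KO 2 to KO 4, and Stard4 was at 206 against 117 to 129. Without KO 1, 20 of the 27 genes were lower than WT, the median was -0.18 and 5 genes had an unadjusted p under 0.05. The median was -0.15 without WT 3 and -0.14 without KO 4.

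Crypt and Paneth cell markers were higher in KO duodenum. All 10 crypt and cycling markers were higher than in WT (median log2 fold change 0.39, 3 at an unadjusted p under 0.05, 0 called), with sums of 619 to 907 CPM in KO and 444 to 764 in WT. All 6 Paneth markers were higher, each at an unadjusted p under 0.05 and 0 called, with sums of 3676 to 7652 CPM against 2087 to 3868. Enterocyte markers summed to 12343 to 16777 CPM in KO, and 10 of 10 were lower. Of the 14 circadian clock genes 10 were lower in KO duodenum (median -0.54, 7 at an unadjusted p under 0.05 in either direction, 0 called), with sums of 363 to 485 CPM in KO, 475 to 715 in WT and 504 to 680 in AF2. The part of these lists in the KO values, and in those of AF2 against KO below, was not tested.

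Set directly against KO, the AF2 duodenum was lower in 23 of the 27 genes, with a median of -0.30, which was -0.14 without KO 1. With edgeR 0 were called, beside 0.0150% of all genes, and DESeq2 and limma-voom also gave 0. Unadjusted p-values under 0.05 numbered 3, all lower, beside 9.98% of all genes. Tm7sf2 was at 6.14, 6.59, 7.25 and 5.93 CPM in KO and at 1.35 to 3.95 in AF2, a log2 fold change of -1.40 ± 0.42 (adjusted p = 0.214). Pmvk was at 24.6, 20.8, 26.9 and 20.5 CPM in KO, above all 4 AF2 libraries (log2 fold change -0.62 ± 0.20, adjusted p = 0.235). Acss2, which makes acetyl-CoA from acetate, was at 33.8, 30.9, 27.7 and 25.1 CPM in KO and at 19.8, 19.6, 25.5 and 19.8 in AF2, a log2 fold change of -0.47 ± 0.20 (adjusted p = 0.399). Lss was at 23.0, 8.11, 6.83 and 15.5 CPM in KO and at 8.40, 10.5, 7.36 and 7.43 in AF2 (log2 fold change -0.65 ± 0.34, adjusted p = 0.543).

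The groups did not overlap for 3 of the 27 genes in this comparison, Pmvk, Ggps1 and Tm7sf2, all lower in AF2, beside 3.13% of all genes. Tm7sf2 shares exon bases on its own strand with Vps51 in GENCODE vM21, and its counts may hold reads of both. With the code runs as a block the median of AF2 against KO was -0.62. AF2 and KO share no run, so that fit links them only through WT libraries.

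In AF2 kidney 1 gene of the pathway was called. Of the 27 genes, Acly rose, and it was the 1 gene called with edgeR. A count of 1 in 27 is near the share of all genes called, 2.71%. There were 21 lower genes with a median log2 fold change of -0.09. At an unadjusted p under 0.05 there were 8, 3 higher and 5 lower, beside 14.5% of all genes. The medians were -0.13 for the mevalonate steps, -0.13 for the isoprenoid and squalene steps, -0.17 for the sterol ring steps, -0.10 for SREBP control, -0.07 for transport and binding, and 0.09 for precursor supply.

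Acly, ATP citrate lyase, splits citrate into the cytosolic acetyl-CoA used by both sterol and fatty acid synthesis. It lies at chr11:100476353-100528000 on the minus strand (GRCm38), and no other annotated gene shares its exons. In kidney it was at 78.7, 66.1, 68.6, 61.9, 72.5 and 84.6 CPM in WT, at 74.7, 83.5, 112.1 and 98.7 in KO and at 106.9, 157.0, 145.6 and 163.6 in AF2. The lowest AF2 library stood above the highest WT library but below KO 3. The log2 fold change of AF2 against WT was 0.99 ± 0.13 (adjusted p = 6.36e-06). For KO against WT it was 0.36 ± 0.13 (adjusted p = 0.228). AF2 against KO gave 0.63 ± 0.14, called at an adjusted p of 0.0369, the 1 member called there beside 0.333% of all genes.

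That AF2 against KO call for Acly was lost in several fits. It was 0.37 (adjusted p = 0.940) with the code runs as a block and 0.63 (adjusted p = 0.0937) with the KO and AF2 libraries alone. KO and AF2 libraries share no code run, and the block links them only through WT libraries. Leaving out WT 3, KO 1, KO 2, KO 4, AF2 2, AF2 3 or AF2 4, each by itself, gave adjusted p-values of 0.0598, 0.119, 0.142, 0.0686, 0.0767, 0.0862 and 0.0649. The AF2 against WT call stood in every fit tried.

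Cyp51 was the other gene of the pathway whose AF2 kidney libraries did not overlap with WT. It was at 293, 326, 319.9, 382, 388 and 408 CPM in WT, at 361, 344, 412 and 349 in KO and at 445, 439.7, 451 and 454 in AF2. All 4 AF2 libraries lay above every WT and KO library and within a narrow range. The log2 fold change against WT was 0.34 ± 0.10 (adjusted p = 0.0649), short of a call. DESeq2 and limma-voom called it, at adjusted p-values of 0.0329 and 0.0408, as did edgeR without WT 6 (0.0392). Calls also came with no filter on low counts (0.0476) and with replicate number as a block (0.0359). In the other 17 of 22 alternative fits, the block for code runs among them, Cyp51 was not called. Leaving out single libraries gave adjusted p-values of up to 0.158. WT 5 and WT 6, which share a code run with the AF2 libraries, were the highest WT libraries, at 388 and 408 CPM. Against KO the log2 fold change was 0.29 ± 0.11 (adjusted p = 0.313). The genes that did not overlap and were higher in AF2 kidney numbered 2 of the 27, Acly and Cyp51, beside 2.37% of all genes. Exons of Cyp51 and Akap9 overlap on opposite strands, and whether the counting used strand is not given in the sources used here. The same holds for Acss2, Hmgcs1, Ggps1, Fdft1, Lss, Srebf1 and Scap, which also overlap an exon of a gene on the other strand, and Fdps shares bases with an annotated gene on its own strand.

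**Figure D3:**
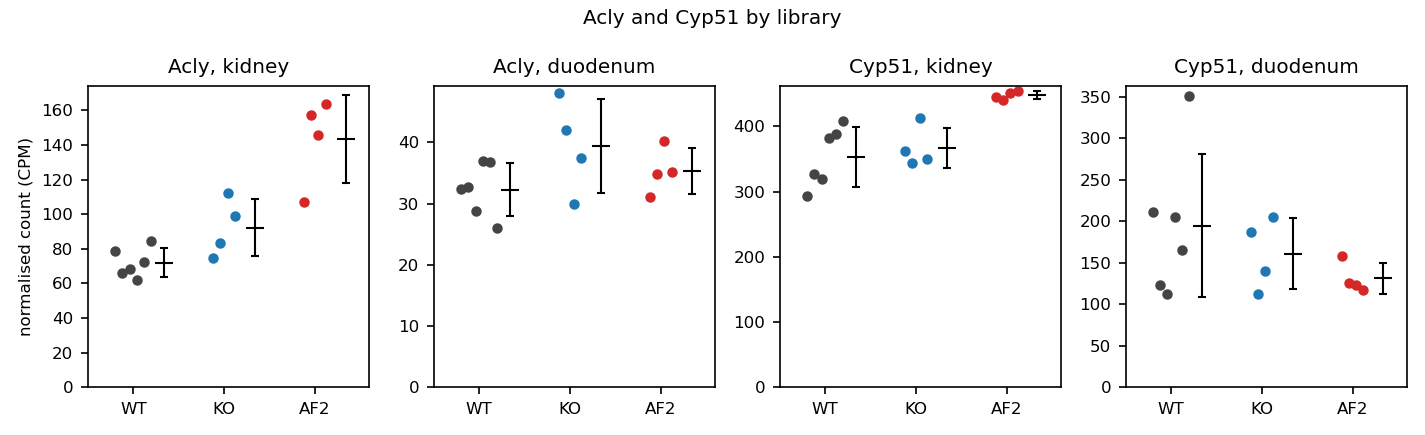
Normalised counts (CPM, linear axes from 0) of Acly and Cyp51 in every kidney and duodenal library by genotype, with the mean and SD beside the points. In kidney the AF2 libraries of both genes lie above all WT libraries, while in duodenum the AF2 libraries of Acly (31.1 to 40.2 CPM) overlap with WT (26.0 to 37.0).

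The other kidney genes with the smallest p in AF2 against WT fell on both sides. Srebf2 was at 26.4 to 37.6 CPM in WT (median 34.9), at 36.0, 29.2, 33.9 and 43.5 in KO and at 36.3, 45.3, 46.2 and 41.2 in AF2, a log2 fold change of 0.32 ± 0.14 (adjusted p = 0.283). Only AF2 1 fell within the WT range. Srebf1 was at 6.68 to 15.6 CPM in WT (median 10.1), at 8.75, 7.41, 6.49 and 9.45 in KO and at 6.05, 10.3, 6.29 and 2.19 in AF2 (log2 fold change -0.78 ± 0.32, adjusted p = 0.219). Acss2 was at 61.6 to 78.6 CPM in WT (median 67.2) and at 70.1, 52.3, 48.3 and 50.3 in AF2. Of its AF2 libraries AF2 1 alone lay within the WT range. The log2 fold change was -0.31 ± 0.12 (adjusted p = 0.186), and without AF2 1 it was called at -0.46 (adjusted p = 0.0474). In the other 21 of 22 alternative fits Acss2 was not called.

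Ebp, the sterol isomerase, was at 129 to 182 CPM in WT kidney (median 169), at 148, 117, 133 and 131 in KO and at 120.0, 116, 131 and 168 in AF2. Its log2 fold changes were -0.28 ± 0.12 in AF2 (adjusted p = 0.242) and -0.30 ± 0.12 in KO (adjusted p = 0.314). Without AF2 4 the AF2 value was called at -0.42 (adjusted p = 0.0320), and in the other 21 of 22 alternative fits it was not called. Insig2 was at 36.3 to 54.2 CPM in WT (median 44.0), at 52.0, 40.7, 31.9 and 40.8 in KO and at 45.9, 32.7, 34.8 and 25.1 in AF2 (log2 fold change -0.35 ± 0.16, adjusted p = 0.295). Msmo1 was at 21.7 to 65.6 CPM in WT (median 33.0) and at 19.2, 24.3, 26.4 and 28.4 in AF2, a log2 fold change of -0.58 ± 0.27 (adjusted p = 0.328). The AF2 libraries of Insig2 and Msmo1 overlapped with WT.

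The remaining regulators overlapped across the kidney groups. Scap was at 46.8 to 66.8 CPM in WT (median 57.5), at 59.7, 58.9, 67.6 and 51.8 in KO and at 55.5, 55.1, 57.1 and 56.8 in AF2 (log2 fold change in AF2 -0.01 ± 0.12). Insig1 was at 3.34 to 9.08 CPM in WT (median 5.22), at 5.15, 4.53, 5.61 and 6.05 in KO and at 4.03, 7.48, 6.71 and 2.55 in AF2, with a log2 fold change in AF2 of -0.10 ± 0.34. The kidney library medians over the 27 genes, the measure given above for duodenum, ran from -0.08 to 0.10 in WT, from -0.17 to 0.04 in KO and from -0.19 to -0.04 in AF2.

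In KO kidney 0 of the 27 genes were called with edgeR, DESeq2 or limma-voom, beside 0.844% of all genes with edgeR. There were 16 lower genes and a median log2 fold change of -0.05. Of the 27, 5 had an unadjusted p under 0.05, 1 higher (Acly) and 4 lower, beside 10.5% of all genes. Tm7sf2 was at 2.49 to 3.89 CPM in WT (median 3.08) and at 1.03, 1.23, 0.590 and 1.89 in KO, where the 4 libraries held 12 reads in all. Every KO library lay below every WT library, and the log2 fold change was -1.36 ± 0.50 (adjusted p = 0.259). Tm7sf2 was the 1 gene of the 27 without overlap here, beside 236 lower and 229 higher of all 13502 genes. Fdft1 was at 4.75 to 12.9 CPM in WT (median 10.2) and at 6.18, 3.70, 7.08 and 4.16 in KO (log2 fold change -0.81 ± 0.33, adjusted p = 0.354). Mvd had a log2 fold change of -0.42 ± 0.18 (adjusted p = 0.366).

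AF2 kidney against KO kidney had 15 of 27 genes lower and a median of -0.05, with 5 unadjusted p-values under 0.05 beside 11.5% of all genes. The groups did not overlap for Cyp51, higher in AF2, and Hsd17b7, lower (log2 fold change -0.21 ± 0.17, adjusted p = 0.699). Over all 13502 genes 479 were higher and 488 lower without overlap. Fdps was at 6.69, 15.6, 5.31 and 9.83 CPM in KO and at 5.55, 4.21, 3.36 and 4.74 in AF2, a log2 fold change of -1.07 ± 0.38 (adjusted p = 0.237). The highest AF2 library lay just above the lowest KO library. Tm7sf2 was at 1.51, 4.21, 4.20 and 1.82 CPM in AF2 (log2 fold change 1.30 ± 0.54, adjusted p = 0.345), where AF2 2 and AF2 3 were above all KO libraries.

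Nephron markers also differed between mutant and WT kidney. Thick ascending limb markers summed to 3466 to 4023 CPM in AF2 and 2298 to 3042 in WT, with 4 of 4 higher and 2 called (Umod and Slc12a1). In KO they summed to 3023 to 3806 CPM, again with 4 of 4 higher, and 1 called. Collecting duct markers summed to 230.4 to 288 CPM in AF2 and 199 to 313 in WT, with 3 of 5 higher and 1 called. Proximal tubule markers, the defining list of the cortex, summed to 12744 to 16978 CPM in AF2 and 15702 to 20309 in WT, with 5 of 6 lower and 0 called. Adrenal cortex markers, another sterol-making tissue, summed to at most 2.80 CPM in any kidney library, and Cyp11b1, Cyp21a1 and Hsd3b1 were at 0 throughout. Their part in the kidney values was not tested. In KO kidney the circadian clock list had 3 of 13 genes called and summed to 526 to 804 CPM, against 785 to 1020 in WT. Over all genes, 2.71% were called in AF2 kidney and 0.844% in KO kidney, each against WT.

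The AF2 effect was then compared between tissues in 1 fit of all 28 libraries. The difference, duodenum minus kidney, was called for 1 of the 27 genes, Acly, beside 0.381% of all genes. It was lower in duodenum for 22 of the 27, with a median of -0.26 beside -0.02 over all genes. Acly differed by -0.88 ± 0.20 (adjusted p = 0.0402): in duodenum it was at 31.1, 34.8, 40.2 and 35.2 CPM in AF2 and 26.0 to 37.0 in WT (median 32.5). In duodenal KO it was at 48.1, 42.1, 29.9 and 37.4 CPM.

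The call was near the threshold. It was lost when any one of 11 libraries was left out, namely duodenal WT 2, WT 5, AF2 1, AF2 3 and AF2 4 and kidney WT 2, WT 3, WT 4, AF2 2, AF2 3 and AF2 4, with adjusted p-values up to 0.0887. Next in order were Cyp51, with a difference of -0.93 ± 0.29 (adjusted p = 0.181), Sqle with -1.01 ± 0.34 and Hsd17b7 with -0.74 ± 0.26 (both adjusted p = 0.218). For the KO effect 0 of the 27 differences were called with edgeR, DESeq2 or limma-voom, beside 0.0535% of all genes with edgeR, and 2 had an unadjusted p under 0.05, Tm7sf2 (1.77 ± 0.58, adjusted p = 0.328) and Hsd17b7 (-0.57 ± 0.25, adjusted p = 0.552).

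**Figure D4:**
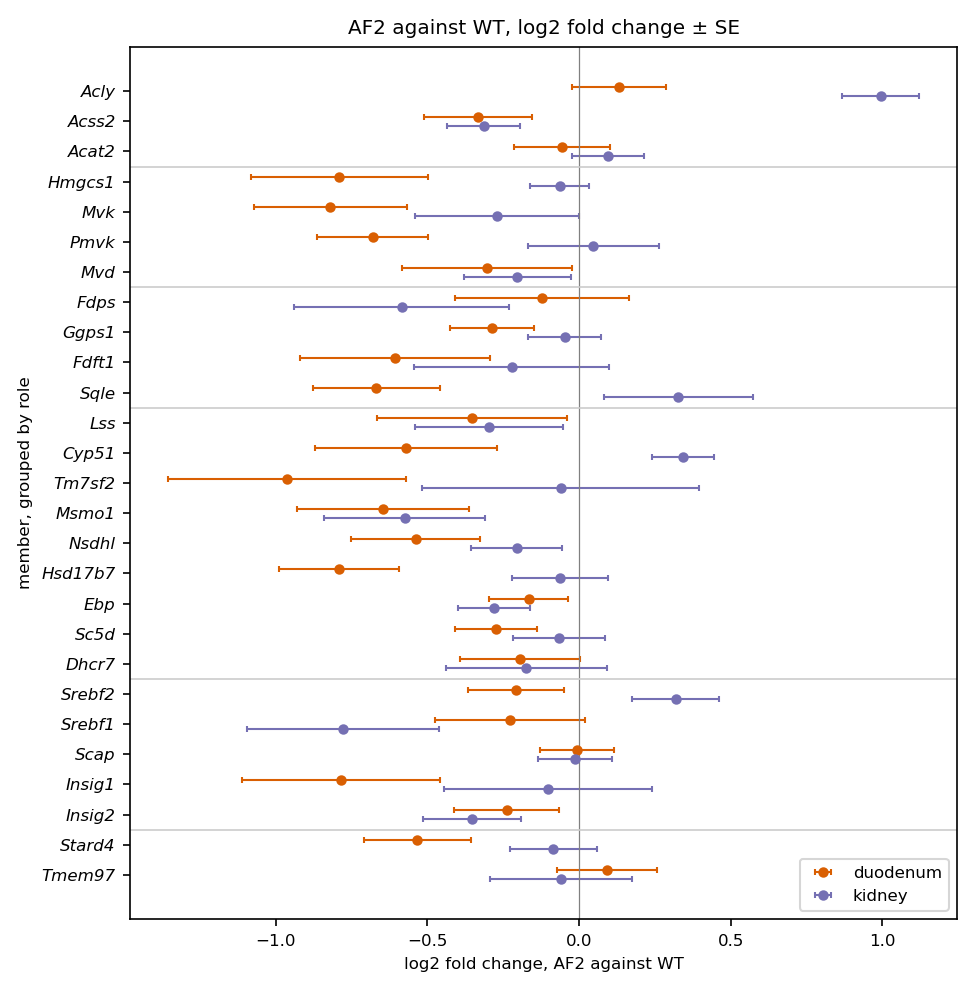
Log2 fold change of AF2 against WT with its standard error (horizontal axis) for the 27 genes tested, grouped by role from precursor supply at the top to transport and binding at the bottom, in duodenum and in kidney. Most duodenal values lie left of 0, Mvk at -0.82, while the kidney value of Acly stands alone at 0.99.

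In WT mice duodenum and kidney differed for 19 of the 27 genes, 11 higher in duodenum and 8 higher in kidney. This share is near that of all 13205 genes tested in both, 71.1%. Precursor supply was higher in kidney throughout: Acss2 had a log2 fold change, duodenum against kidney, of -1.43 ± 0.14 (adjusted p = 5.59e-09), Acly -1.23 ± 0.12 (9.48e-09) and Acat2, the cytosolic thiolase, -0.64 ± 0.12 (6.87e-05). The mevalonate steps were split. Mvk (1.05 ± 0.22) and Pmvk (0.66 ± 0.15) were higher in duodenum, and Mvd (-0.77 ± 0.21) and Hmgcs1 (-0.49 ± 0.19, adjusted p = 0.0299) were higher in kidney. The Hmgcs1 call was lost with no filter on low counts and without duodenal WT 4 or WT 5 or kidney WT 5 or WT 6.

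The late sterol steps leaned to the duodenum. Sc5d was at 148 to 256 CPM in WT duodenum and 30.8 to 43.0 in WT kidney (log2 fold change 2.27 ± 0.14, adjusted p = 4.29e-12). Msmo1 (2.23 ± 0.33), Dhcr7 (1.46 ± 0.19), Hsd17b7 (0.97 ± 0.18) and Ebp (0.49 ± 0.13) were likewise higher in duodenum, and Cyp51 (-0.93 ± 0.23), Nsdhl (-0.77 ± 0.15) and Ggps1 (-0.76 ± 0.12) in kidney. Insig1 (1.96 ± 0.32), Srebf2 (0.87 ± 0.14), Stard4 (0.88 ± 0.14) and Tmem97 (1.00 ± 0.19) were higher in duodenum as well. Scap (-0.10 ± 0.11), Insig2 (-0.20 ± 0.14), Srebf1 (0.28 ± 0.22), Fdps (0.64 ± 0.31), Fdft1 (0.18 ± 0.28), Sqle (0.40 ± 0.23), Lss (-0.39 ± 0.24) and Tm7sf2 (0.57 ± 0.33) were not called. Tissue and the 2 separately deposited tables cannot be told apart in this comparison.

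**Figure D5:**
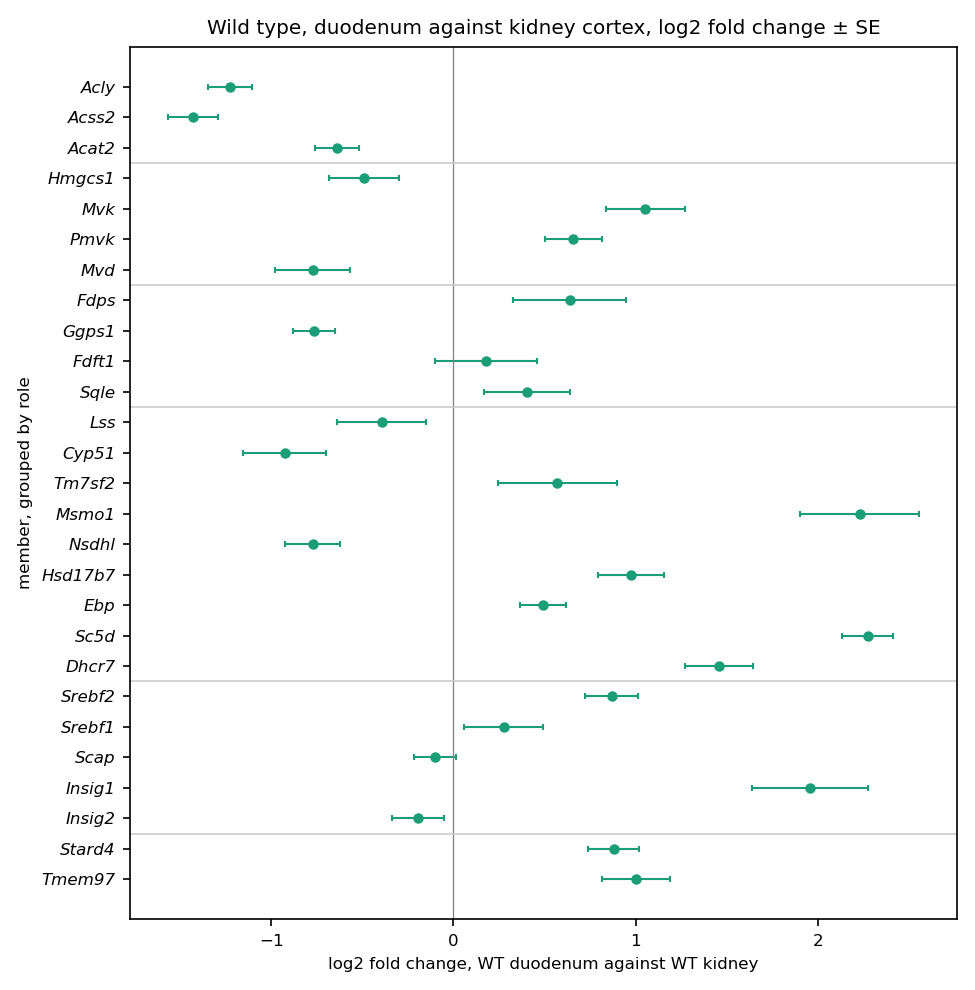
Log2 fold change of WT duodenum against WT kidney cortex with its standard error (horizontal axis) for the 27 genes tested, in the same order of roles. The 3 precursor genes lie left of 0 (higher in kidney), and Sc5d and Msmo1 lie farthest right, at 2.27 and 2.23.

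Pathways next to cholesterol synthesis were read in the same fits. Of the 14 fatty acid synthesis genes, which share Acly and SREBP input, 0 were called in AF2 duodenum (median log2 fold change 0.09, 8 higher, 1 with an unadjusted p under 0.05). In kidney 1 of the 14 was called in each mutant, beside 2.71% of all genes in AF2 and 0.844% in KO. In both it was Scd1, the stearoyl-CoA desaturase. It fell from 202 ± 38.5 CPM in WT (SD, n = 6) to 129 ± 29.8 in AF2 (n = 4, log2 fold change -0.65 ± 0.16, edgeR adjusted p = 0.0316) and 119.8 ± 22.0 in KO (n = 4, -0.76 ± 0.16, edgeR adjusted p = 0.0285), and the WT libraries overlapped with neither mutant. Fasn, fatty acid synthase, had a log2 fold change of -0.32 ± 0.27 in AF2 kidney and 0.08 ± 0.13 in AF2 duodenum.

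Among the 10 genes that use isoprenoids, Nus1 was the 1 called, in AF2 kidney, beside 2.71% of all genes there. Nus1 is a subunit of the cis-prenyltransferase that makes dolichol from farnesyl diphosphate. It fell from 373 ± 49.2 CPM in WT to 204 ± 50.3 in AF2, a log2 fold change of -0.87 ± 0.14 (edgeR adjusted p = 0.000400), with no overlap. In AF2 duodenum it was at 134 ± 8.01 CPM against 194 ± 45.9, also with no overlap but not called (-0.53 ± 0.14, edgeR adjusted p = 0.119).

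Of the 5 oxysterol enzymes, 3 were tested in kidney and 1 was called in AF2. Of all genes 2.71% were called in AF2 kidney against WT and 0.333% against KO. Cyp7b1, the oxysterol hydroxylase, rose in AF2 kidney to 30.8 ± 21.1 CPM from 2.29 ± 1.43 in WT (log2 fold change 3.79 ± 0.56, edgeR adjusted p = 0.00187) and 2.85 ± 2.05 in KO (3.34 ± 0.62, edgeR adjusted p = 0.0430). In AF2 duodenum it was at 0.965 ± 0.410 CPM against 1.23 ± 1.12 in WT, with no call.

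In the other 4 lists edgeR called 0 genes in either mutant of either tissue against WT, with 0 to 4 of a list at an unadjusted p under 0.05. Electron donors of the sterol enzymes, such as Por, the P450 reductase that feeds Cyp51 and Sqle, had 4 of 5 lower in AF2 duodenum (median -0.31, 3 at an unadjusted p under 0.05) and 5 of 5 lower in KO duodenum (median -0.29, 4 at an unadjusted p under 0.05). In AF2 kidney 5 of 5 were lower with a median of -0.24. LXR targets and sterol efflux genes had medians of -0.08 over 8 genes in AF2 duodenum and -0.06 over 7 in AF2 kidney. Genes of sterol uptake, esterification and transfer had medians of 0.01 over 12 and 0.04 over 10, and genes of SREBP cleavage and degradation in the endoplasmic reticulum 0.09 and -0.07 over 10 each.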

How the data were processed

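The authors deposited 1 table of raw counts for each tissue, with gene symbols as rows and libraries as columns, per the file headers. Libraries were made with the QuantSeq kit, per the labels' protocols. The submitters' processing notes name mm10 and limma 3.34.9. The aligner, the counting tool and its strand setting were not given in the sources used here. All counts are even, and reads are taken as counts divided by 2.

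All 14 libraries of a tissue entered 1 fit (edgeR 4.0.16, R 4.3.3): filterByExpr, TMM scaling, and robust quasi-likelihood tests, two-sided, adjusted over all genes tested. Duodenum against kidney used the 12 WT libraries. Each SE was taken as the size of the log2 fold change divided by the root of its F statistic. The steps were tested on simulated data. Alternatives were RLE scaling, no filter, DESeq2 1.42.0, limma-voom (limma 3.58.1), halved counts, blocks for replicate number and library-code run, only the groups compared, and each library left out.

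Mutant libraries are given singly for the called genes of the pathway and 5 regulators. The same holds for the 8 smallest p in AF2 against WT of each tissue and the 4 smallest elsewhere. WT libraries are mostly given as a range and median. Genes of other lists are named when called, and Scd1, Nus1 and Cyp7b1 are given as mean and SD. Fasn, Por and the examples outside this rule were chosen after their values were seen. Members and lists were chosen with earlier results of these data known. Symbols matched GENCODE vM21 for 97.2% in duodenum and 97.3% in kidney.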

Additional observations from a re-analysis of the deposited data

Results flagged for a closer look

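Over 22 named genes in 6 groups each, 13 of 132 groups held a library far from the others, where chance flags about 1 in 20. KO 1 of duodenum stood high for 4 genes: Hmgcs1 at 421 CPM, Msmo1 at 203, Stard4 at 206 and Fdft1 at 15.4. AF2 4 of duodenum was low for Srebf2 (43.6 CPM) and Ebp (175.8) and high for Srebf1 (15.4). Single libraries of duodenum were high for Acss2 (AF2 3, 25.5 CPM), Fdps (AF2 1, 14.3) and Lss (WT 1, 17.7) and low for Scap (WT 5, 45.3). In kidney, Mvk was low in AF2 2 (4.67 CPM) and Srebf2 in WT 3 (26.4). The AF2 effect on Acly differed between duodenum and kidney by -0.88 on the log2 scale, by the test of the difference itself (edgeR adjusted p = 0.0402).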

How the results depend on the processing

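Each of 48 results was recomputed under the alternatives, and 1010 of 1085 values kept their call or, for medians and counts, moved by less than the spread between libraries or by at most 1.5 times. These include the median of KO against WT duodenum, which turned from -0.08 to 0.03 with code runs as a block. Genes that stayed uncalled also count as kept, and the spread allowed for medians was 0.216 in duodenum and 0.073 in kidney. The median of AF2 against KO duodenum thus counts as kept where it moved from -0.30 to -0.14, leaving out 1 library. In AF2 against WT duodenum the genes called numbered 5 with no filter, 2 with DESeq2, 2 with code runs as a block and 0 to 1 leaving out 1 library (1, Pmvk, without WT 4). In AF2 against WT kidney they numbered 3 with no filter, 2 with DESeq2, limma-voom or the replicate block, and 1 to 2 leaving out 1 library, and the median was -0.16 with limma-voom and -0.18 with code runs. These counts stand without the share of all genes called under the same setting, and for no filter in duodenum only the number called is given. In AF2 against KO kidney 0 genes of the pathway were called with code runs or only the 2 groups, and 0 to 1 leaving out 1 library. There Acly was 0.37 with code runs, 0.63 with only the 2 groups and 0.53 to 0.76 leaving out 1 library, and the median ran from -0.086 to 0.049 (0.049 without AF2 1). With code runs the median of AF2 against KO duodenum was -0.62, and Sc5d in KO duodenum turned from -0.31 to 0.011. For the tissue difference in AF2, 0 genes were called with the replicate block and 0 to 1 leaving out 1 library, and Acly was -0.87 with the block (adjusted p = 0.102) and -0.98 to -0.81 leaving out 1 library. The labels do not say whether same-numbered samples belong together. Their deviations from group means correlated above 0.1 in 1 of 12 pairs in each tissue and 1 of 14 across tissues. Such correlations cannot show whether libraries came from the same mouse. The replicate block moved no other count of these genes called by over 1.5 times. The cause of these changes was not tested. At 22 and 12 reads in a group, as for Tm7sf2, depth limits what can be seen.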
